A study of Mus musculus with 8 samples.

Results

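The 40 genes described here encode the machinery of DNA replication and cell division, and were chosen by name: all rows of the deposited table whose gene symbol is on the list. All 40 were found among the 21649 genes of the table, and all 40 were among the 18097 genes that passed a filter on low values (at least 10 in at least 2 libraries). RNA was sequenced from cells sorted by fluorescence and labelled as non-vascular smooth muscle cells, taken from the lung (2 libraries), intestine (3 libraries) and bladder (3 libraries) of mice. All 3 groups share 1 genotype, Cspg4-Dre/Acta2-CreERT/R26-GFP, in which Cspg4 drives the Dre recombinase, Acta2 drives a Cre that tamoxifen activates, and GFP is the reporter at the Rosa26 locus. All 3 also share the treatment, tamoxifen injected into the peritoneum for 3 days at 0.75 mg per 10 g of body weight. Age, sex and the time between injection and sorting are not given in the labels, and untreated cells were not analysed here. Cspg4 and Acta2 are also used by pericytes and by activated fibroblasts, so the driver genes alone do not define a single muscle type.

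A dividing cell copies its DNA once and then shares it between daughters. Origins are licensed in G1 phase by CDC6 and CDT1, which load the ring of MCM proteins; CDC45 and MCM10 help turn that ring into the active helicase of S phase, and nucleotide-making enzymes feed the polymerases. Cyclin E and cyclin A drive S phase, cyclin B with CDK1 drives mitosis, and CDC20 with the anaphase-promoting complex (APC/C) ends it. Mature smooth muscle is mostly quiescent but keeps the ability to re-enter the cycle after injury or during growth.

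Libraries held 9.72 to 13.62 M reconstructed reads, fewest in bladder. Values are taken here as normalized read counts, that is read counts scaled per library and rounded. This was inferred from the spacing of the whole numbers and is not stated in the labels. On that reading 1 read was worth 0.822 and 0.865 in lung, 0.868 to 0.957 in intestine and 1.096 to 1.268 in bladder. The kit does not mark the strand, and 12 of the 40 members overlap another gene of the table, so part of their reads could belong to the neighbour: Foxm1, Mcm7, Cdc45, Pcna, Tk1, Ccna2, Ccne2, Cdc20, Plk1, Cenpf, Kif20a and Nusap1. Smooth muscle genes were read in all libraries, with Myh11, the smooth muscle myosin heavy chain, at 10795 and 10378 in lung, 12038, 11371 and 12454 in intestine, and 6099, 4423 and 4601 in bladder. Genes of other cells were read as well: Pdgfra, a fibroblast receptor, had 1203 and 1244 in lung, 5947 to 6921 in intestine and 9933 to 11091 in bladder, and Epcam, an epithelial adhesion molecule, had 32 and 56 in lung, 2423 to 2658 in intestine and 109 to 183 in bladder. The labelled cell type is therefore not assumed for all RNA. The labels do not say whether the libraries of a tissue are from different animals, and the p-values therefore reflect the variation among these 8 libraries alone, part of which may be technical. In bulk RNA a smaller number of dividing cells and less RNA per dividing cell cannot be told apart.

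The cell cycle genes were highest in lung and lowest in bladder. Summed over the 40 genes, they held 1891 and 2946 ppm of all normalized values in the lung libraries, 1538, 1642 and 1654 ppm in the intestine libraries, and 726, 725 and 796 ppm in the bladder libraries. All lung and intestine libraries lay above all bladder libraries, and lung library 1 lay much nearer to intestine than lung library 2 did. By mean value, 32 of the 40 genes had the order lung, intestine, bladder from high to low; 6 were highest in intestine and lowest in bladder (Mcm6, Mcm10, Cenpe, Top2a, Kif11 and Kif23), and 2 were highest in lung and lowest in intestine (Cdc6 and Pcna).

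Each pair of tissues was compared with limma on log2(value + 1) over all 18097 genes, and a gene was called when its Benjamini-Hochberg adjusted p was under 0.05. Between lung and bladder, 38 members were higher in lung and 0 lower, where 19.2% of all genes tested were higher and 21.8% lower; the median log2 difference was 1.88 over the members and 0.00 over all genes. Cdc6 and Pcna were the 2 not called. Between intestine and bladder, 32 members were higher in intestine and 0 lower, against 28.7% higher and 23.3% lower over all genes, with medians of 1.27 and 0.06. Between lung and intestine, 16 members were higher in lung and 1, Mcm10, was lower, against 15.9% higher and 23.6% lower over all genes, with medians of 0.73 and -0.04. All lung libraries lay above all bladder libraries for 39 members and below them for 0, against 28.6% and 29.5% of all genes. Intestine lay wholly above bladder for 37 members and wholly below for 0, against 34.3% and 29.1% of all genes. Lung lay wholly above intestine for 20 members and wholly below for 2, against 26.9% and 31.6% of all genes. The comparisons share libraries, so their counts are not independent of each other. Over all 3 pairs, 13 members were higher in lung than in intestine and higher in both than in bladder. Another 18 were higher in both than in bladder with no call between lung and intestine. Of the rest, 4 were called only as higher in lung than in bladder. In 2, lung was above both other tissues with no call between those. Mcm10, Cdc6 and Pcna each had a pattern of their own. These patterns were not counted over all genes, so no excess is read from them.

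The calls between lung and intestine depended on single libraries. Without lung library 2 the median log2 difference for lung minus intestine was 0.31 over the members and -0.02 over all genes. Without lung library 1 these medians were 1.05 and -0.05. Without intestine library 1, 2 or 3, 10, 10 and 9 members were higher in lung, against 13.2%, 12.4% and 12.8% of all genes. Against bladder, 37 or 38 members were higher in lung and 28 to 32 in intestine when any single intestine or bladder library was left out. In those fits 15.7% to 17.8% of all genes were higher in lung and at most 26.7% in intestine. Without lung library 2 the median log2 difference for lung minus bladder was 1.53 over the members, and without lung library 1 it was 2.28. Over all genes these medians were 0.00. Undoing the deposited scaling moved the median of all genes to 0.48 for lung minus bladder and to 0.45 for intestine minus bladder. Then 40 and 38 members were higher, against 43.9% and 46.0% of all genes. Of all calls, 80.6% and 81.1% were on the higher side (46.7% and 55.2% with the deposited scaling). With quantile normalization, 26 members were higher and 2 (Cdc6 and Pcna) lower in intestine than in bladder, against 23.0% and 32.1% of all genes. Of all calls in that pair, 41.7% were on the higher side. In the same setting 23 members were higher in lung than in intestine, against 28.6% of all genes. There 59.5% of all calls were on the higher side (40.3% with the deposited scaling).

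**Figure D1:**
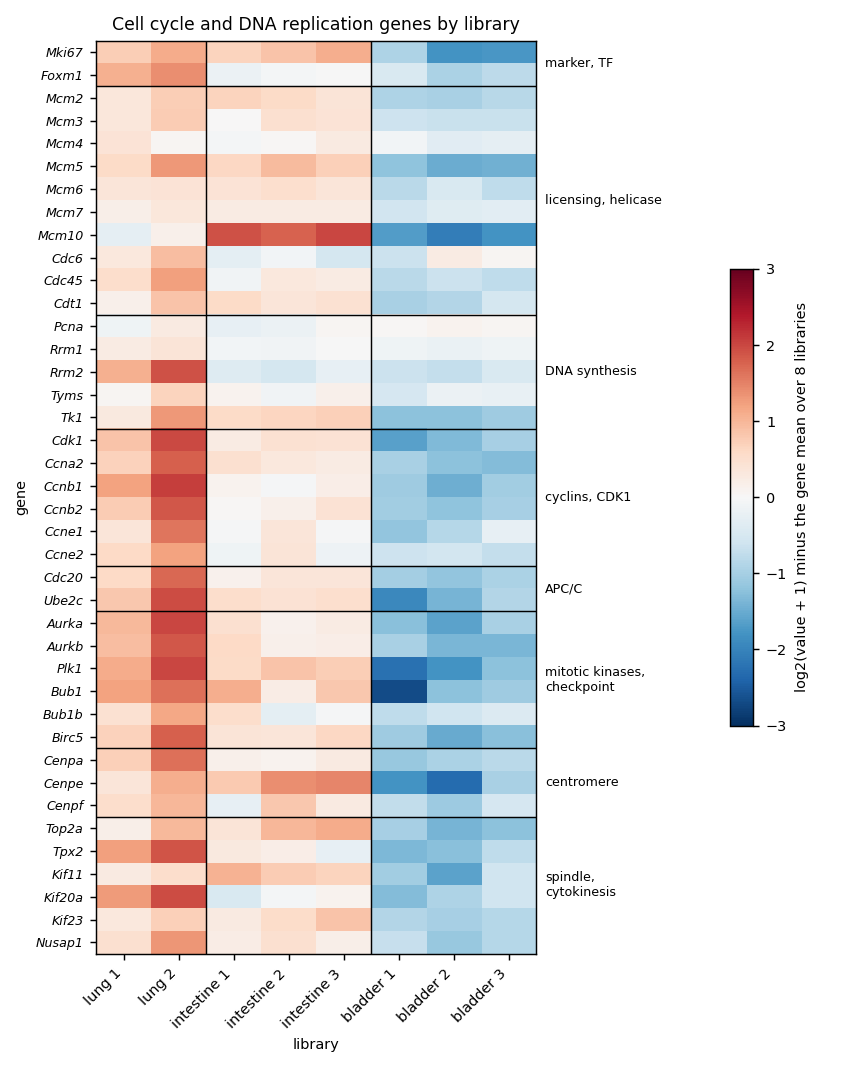
Each row is 1 of the 40 genes, grouped by role, and each column 1 library; colour gives log2(value + 1) minus the gene's mean over the 8 libraries. Bladder columns are below the gene mean for most genes, lung library 2 is the highest column for most mitotic genes, and Mcm10 is highest in the 3 intestine libraries (316, 284 and 333).

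**Figure D2:**
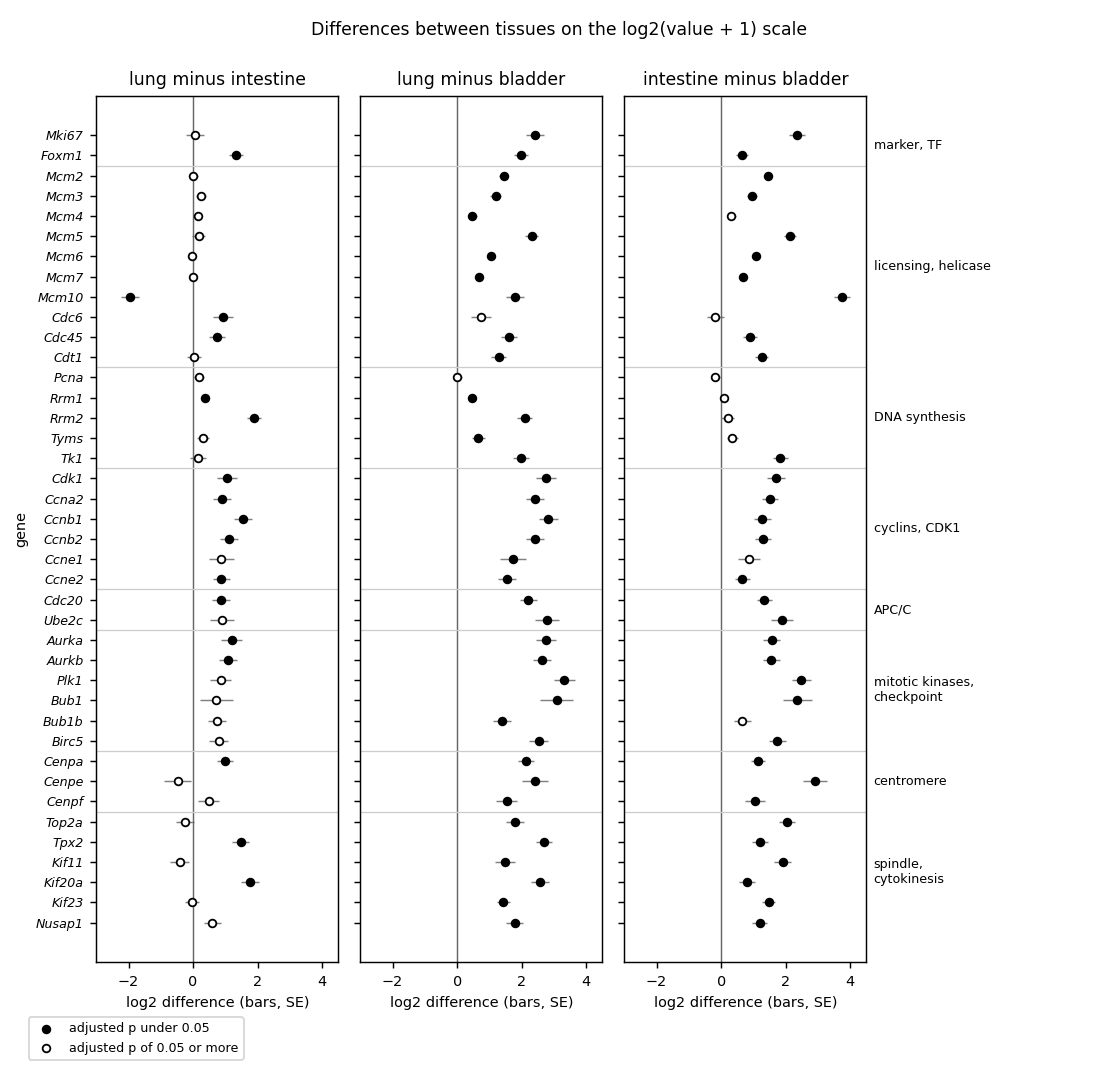
Points give each gene's log2 difference for lung minus intestine, lung minus bladder and intestine minus bladder, with bars of 1 SE from the limma fit; filled points passed the test. In the lung minus bladder panel 38 of 40 points are filled and right of 0, and in the lung minus intestine panel 16 are filled on the right and Mcm10 alone on the left.

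The promoters of the members were read for sequence motifs known to control cell cycle genes. The members were chosen by name as such genes, and promoter letters do not depend on these libraries. The relation of the motifs to the differences between tissues was not tested. RefSeq promoters (250 bases before to 50 after the start, build GRCm38.p6) were matched by symbol for 33 of the 40; Foxm1, Kif20a, Ccna2, Aurkb, Tpx2, Mcm4 and Ccne2 had none in the table used. Letters were searched on both strands: TTTGAA or TTCGAA for the cell cycle homology region (CHR), which the DREAM and MuvB complexes bind; CCAAT for the factor NF-Y; and TTTCCCGC, TTTCGCGC, TTTGCCGC or TTTGGCGC for E2F. Members were counted by gene, as holding a motif if any promoter of the gene did, whereas the background was counted by promoter. The 2 shares are therefore not quite alike. CHR letters stood in 17 of 33 members, or 51.5%, against 19.2% of all 32851 promoters. CCAAT stood in 26, or 78.8%, against 37.4%, and E2F letters in 7, or 21.2%, against 2.26%. All 17 members with CHR letters also held CCAAT. By role the motifs divided. E2F letters stood in 6 of 9 licensing and helicase genes (Mcm3, Mcm5, Mcm6, Mcm7, Cdc6 and Cdt1) and otherwise in Cdk1. CHR letters stood in both APC/C cofactors, 4 of 5 genes of mitotic kinases and checkpoint and 3 of 4 spindle genes. In the groups between, they stood in 2 of 3 centromere genes and 2 of 4 genes of cyclins and CDK1. They also stood in 3 of 9 licensing and helicase genes and in 0 of 5 genes of DNA synthesis. A match is a run of letters and not a shown binding site, and its absence from this window says nothing of the factor.

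The 160 bases before the start are printed for 7 members, with motif matches in capitals: Mcm6 and Mcm5 for E2F letters in a helicase gene, Cdk1 for all 3 motifs together, Cdc20 and Ube2c for the mitotic pairing of CHR and CCAAT, and Mcm10 and Rrm2 because their levels set them apart below. Capital runs longer than 8 letters in Mcm6 and Mcm5 are overlapping matches on opposite strands.
Mcm6: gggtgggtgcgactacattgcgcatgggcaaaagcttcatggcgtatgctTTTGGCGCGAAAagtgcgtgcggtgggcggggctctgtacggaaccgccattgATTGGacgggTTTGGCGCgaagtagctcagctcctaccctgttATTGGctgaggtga
Mcm5: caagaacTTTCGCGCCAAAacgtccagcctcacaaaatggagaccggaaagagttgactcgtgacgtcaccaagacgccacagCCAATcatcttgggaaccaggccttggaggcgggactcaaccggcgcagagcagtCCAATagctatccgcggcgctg
Cdk1: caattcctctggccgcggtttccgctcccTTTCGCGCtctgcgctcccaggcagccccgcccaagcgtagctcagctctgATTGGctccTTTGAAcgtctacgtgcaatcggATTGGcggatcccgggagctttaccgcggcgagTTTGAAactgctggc
Cdc20: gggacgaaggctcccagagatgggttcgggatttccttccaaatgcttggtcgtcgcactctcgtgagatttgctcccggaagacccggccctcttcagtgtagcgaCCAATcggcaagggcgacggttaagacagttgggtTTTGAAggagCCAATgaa
Ube2c: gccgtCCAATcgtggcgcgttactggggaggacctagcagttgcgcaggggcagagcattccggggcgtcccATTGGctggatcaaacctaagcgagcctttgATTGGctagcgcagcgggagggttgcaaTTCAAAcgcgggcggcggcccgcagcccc
Mcm10: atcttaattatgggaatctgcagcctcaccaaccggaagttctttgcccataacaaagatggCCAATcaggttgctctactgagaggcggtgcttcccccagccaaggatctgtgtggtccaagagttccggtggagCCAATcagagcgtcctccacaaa
Rrm2: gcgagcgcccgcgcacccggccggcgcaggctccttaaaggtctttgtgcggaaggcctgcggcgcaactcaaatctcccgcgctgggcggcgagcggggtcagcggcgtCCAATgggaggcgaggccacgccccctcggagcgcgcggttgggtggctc
In GRCm38.p6 these stretches are chr1:128359706-128359865 for Mcm6 (minus strand), chr8:75109349-75109508 for Mcm5 (plus strand), chr10:69352913-69353072 for Cdk1 (minus strand), chr4:118437344-118437503 for Cdc20 (minus strand), chr2:164769769-164769928 for Ube2c (plus strand), chr2:5012792-5012951 for Mcm10 (minus strand) and chr12:24708094-24708253 for Rrm2 (plus strand).

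The marker of cycling cells, Mki67, and the transcription factor that drives mitotic genes, Foxm1, differed in how lung stood to intestine. Mki67, whose protein coats mitotic chromosomes (chromosome 7, 135291513 to 135318090, mm39), had 382 and 503 in lung, 368, 415 and 494 in intestine and 120, 66 and 68 in bladder. Lung and intestine overlapped, and all of their libraries lay above the highest bladder library. Its log2 difference was 0.05 (SE 0.28) for lung minus intestine, 2.41 (SE 0.28) for lung minus bladder and 2.36 (SE 0.25) for intestine minus bladder, with Benjamini-Hochberg adjusted p in limma of 0.899, 0.000138 and 4.78e-05. Foxm1 (chromosome 6, 128339930 to 128353109) had 408 and 511 in lung, 170, 185 and 190 in intestine and 140, 99 and 111 in bladder. The 3 tissues did not overlap, and Foxm1 rose in lung over intestine by 1.33 (SE 0.21, limma adjusted p = 0.000822 after Benjamini-Hochberg) and in intestine over bladder by 0.65 (SE 0.18, adjusted p = 0.0152), on the log2 scale. Without intestine library 3 or without bladder library 2 the call of Foxm1 between intestine and bladder was lost.

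Among the 10 licensing and helicase genes, most members stood above bladder in both lung and intestine. Higher than in bladder were 9 in lung and 8 in intestine, against 19.2% and 28.7% of all genes. Between lung and intestine 2 were higher in lung, 1 was lower and 7 were not called. Over all genes 15.9% were higher and 23.6% lower, so these counts are close to or below the shares over all genes. The 6 subunits of the replicative helicase, Mcm2 to Mcm7, had log2 differences of -0.04 to 0.24 between lung and intestine. Mcm6 (chromosome 1, 128259327 to 128287401) was the most abundant, with 1836 and 1897 in lung, 1895, 2022 and 1827 in intestine and 821, 1039 and 841 in bladder. Lung lay within the range of intestine and bladder lay below both, with a log2 difference of 1.06 (SE 0.11, limma adjusted p = 6.73e-05 after Benjamini-Hochberg) for lung minus bladder and 1.09 (SE 0.10, adjusted p = 1.64e-05) for intestine minus bladder. Mcm5 (chromosome 8, 75836197 to 75855067) had 713 and 1176 in lung, 735, 923 and 791 in intestine and 208, 169 and 175 in bladder. It was the subunit with the largest difference from bladder, 2.31 (SE 0.21) for lung and 2.14 (SE 0.19) for intestine, with Benjamini-Hochberg adjusted p in limma of 3.14e-05 and 1.45e-05. Mcm4 had the smallest, 0.47 (SE 0.14, limma adjusted p = 0.0244 after Benjamini-Hochberg) for lung and 0.32 (SE 0.13, adjusted p = 0.0605) for intestine, and its call in lung was lost without lung library 1, bladder library 2 or bladder library 3 (adjusted p = 0.15, 0.0774 and 0.0661). Mcm2, Mcm3 and Mcm7 were higher than in bladder by 1.45, 1.19 and 0.67 in lung and by 1.45, 0.95 and 0.67 in intestine, all past the test.

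The helicase is built with 1 copy of each subunit, so the levels of the 6 genes can be set beside each other per 1000 nt of transcript. On that scale the highest subunit stood above the lowest by 2.00- and 1.55-fold in the lung libraries, by 2.00-, 1.70- and 1.79-fold in the intestine libraries, and by 4.11-, 4.77- and 4.29-fold in the bladder libraries. The spread among subunits was thus wider in each bladder library than in any lung or intestine library. In bladder Mcm5 was lowest in all 3 libraries, at 61.5, 50.0 and 51.8 per 1000 nt, while the highest subunit was Mcm4 at 253 and 222 in libraries 1 and 3 and Mcm6 at 239 in library 2. In lung the lowest was Mcm5 at 211 in library 1 and Mcm4 at 281 in library 2, and in intestine Mcm5 at 217, 273 and 234, with Mcm6 highest in all lung and intestine libraries (420 to 464). Transcript lengths are of 1 isoform per gene, so isoform use that differs between tissues would move these values.

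Mcm10, which joins the helicase at firing origins, was the 1 member lower in lung than in intestine. It had 68 and 92 in lung, 316, 284 and 333 in intestine and 25, 19 and 23 in bladder (chromosome 2, 4994525 to 5017602). The 3 tissues were apart by wide gaps, with lung between the others. Its log2 difference was -1.96 (SE 0.27) for lung minus intestine, 1.79 (SE 0.27) for lung minus bladder and 3.75 (SE 0.24) for intestine minus bladder, the largest of any member in that pair, with Benjamini-Hochberg adjusted p in limma of 0.00037, 0.000631 and 2.21e-06. It was lower in lung than in intestine with either lung library alone, with a log2 difference of -2.17 (limma adjusted p = 0.00116 after Benjamini-Hochberg) for library 1 and of -1.74 (adjusted p = 0.00247) for library 2. Cdc45, which joins the helicase at the same step, had 251 and 408 in lung, 161, 215 and 205 in intestine and 98, 110 and 102 in bladder. It was higher in lung than in intestine by 0.73 (SE 0.25, limma adjusted p = 0.0401 after Benjamini-Hochberg).

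Of the licensing factors, Cdt1, which loads the helicase and is destroyed in S phase, had 321 and 524 in lung, 436, 374 and 398 in intestine and 147, 158 and 200 in bladder. Its lung libraries lay on both sides of intestine, and it was higher in both than in bladder by 1.29 (SE 0.23) and 1.26 (SE 0.20), with Benjamini-Hochberg adjusted p in limma of 0.00163 and 0.000633. Cdc6, its partner, had 204 and 308 in lung, 132, 154 and 113 in intestine and 104, 193 and 168 in bladder. It was the only member called between lung and intestine but in no pair with bladder: 0.92 (SE 0.31, limma adjusted p = 0.039 after Benjamini-Hochberg) over intestine, 0.74 (SE 0.31, adjusted p = 0.0837) over bladder, and -0.18 (SE 0.27, adjusted p = 0.603) for intestine minus bladder. The call was lost without lung library 2, any of the intestine libraries or bladder library 3 (adjusted p = 0.0549 to 0.24), and the same libraries and both other bladder libraries each ended the call of Cdc45.

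Genes of DNA synthesis and nucleotide supply were mixed. Of 5, 4 were higher in lung than in bladder, 2 in lung than in intestine and 1 in intestine than in bladder. Over all genes 19.2%, 15.9% and 28.7% were higher, so the count for intestine over bladder is not above the share over all genes. Ribonucleotide reductase, which makes deoxyribonucleotides, pairs a large subunit (Rrm1) with a small one whose level follows the cycle (Rrm2). Rrm2 (chromosome 12, 24758240 to 24764145) had 1053 and 1876 in lung, 378, 343 and 419 in intestine and 321, 303 and 364 in bladder. Both lung libraries were far above the rest, while intestine and bladder overlapped. Its log2 difference was 1.89 (SE 0.22) for lung minus intestine and 2.09 (SE 0.22) for lung minus bladder, with Benjamini-Hochberg adjusted p in limma of 0.000143 and 7.74e-05, against 0.21 (SE 0.20, adjusted p = 0.414) for intestine minus bladder. Rrm1 (chromosome 7, 102090902 to 102118978) had 1598 and 1740 in lung, 1256, 1252 and 1337 in intestine and 1227, 1174 and 1230 in bladder. It was higher in lung by 0.38 (SE 0.08) over intestine and 0.46 (SE 0.08) over bladder, with Benjamini-Hochberg adjusted p in limma of 0.00414 and 0.00134. Per 1000 nt of transcript, Rrm2 stood at 1.65 and 2.69 times Rrm1 in the lung libraries, at 0.751, 0.684 and 0.782 times in the intestine libraries and at 0.653, 0.644 and 0.739 times in the bladder libraries. The small subunit thus exceeded the large one in both lung libraries and in none of the others.

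Pcna, the sliding clamp of the polymerases, was the 1 member called in no pair. It had 407 and 534 in lung, 374, 393 and 460 in intestine and 449, 474 and 463 in bladder (chromosome 2, 132091082 to 132095234). All 3 tissues overlapped, with log2 differences of 0.19 (SE 0.15), 0.01 (SE 0.15) and -0.18 (SE 0.14) for lung minus intestine, lung minus bladder and intestine minus bladder, and Benjamini-Hochberg adjusted p in limma of 0.342, 0.969 and 0.294. Per 1000 nt of transcript it was the highest of the 40 members in bladder, at 304, and stood at 310 in lung and 269 in intestine. Tk1, the thymidine kinase of the salvage pathway (chromosome 11, 117706352 to 117716918), had 319 and 633 in lung, 384, 407 and 427 in intestine and 109, 110 and 122 in bladder. The lung libraries lay on either side of intestine, and both tissues were above bladder by 1.98 (SE 0.26) and 1.83 (SE 0.23), with Benjamini-Hochberg adjusted p in limma of 0.000276 and 0.000136. Tyms, which makes thymidylate, had 623 and 962 in lung, 563 to 673 in intestine and 424 to 536 in bladder, and was higher in lung than in bladder by 0.66 (SE 0.19, limma adjusted p = 0.0207 after Benjamini-Hochberg), a call lost without lung library 2 (adjusted p = 0.15) or bladder library 1 (adjusted p = 0.065).

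**Figure D3:**
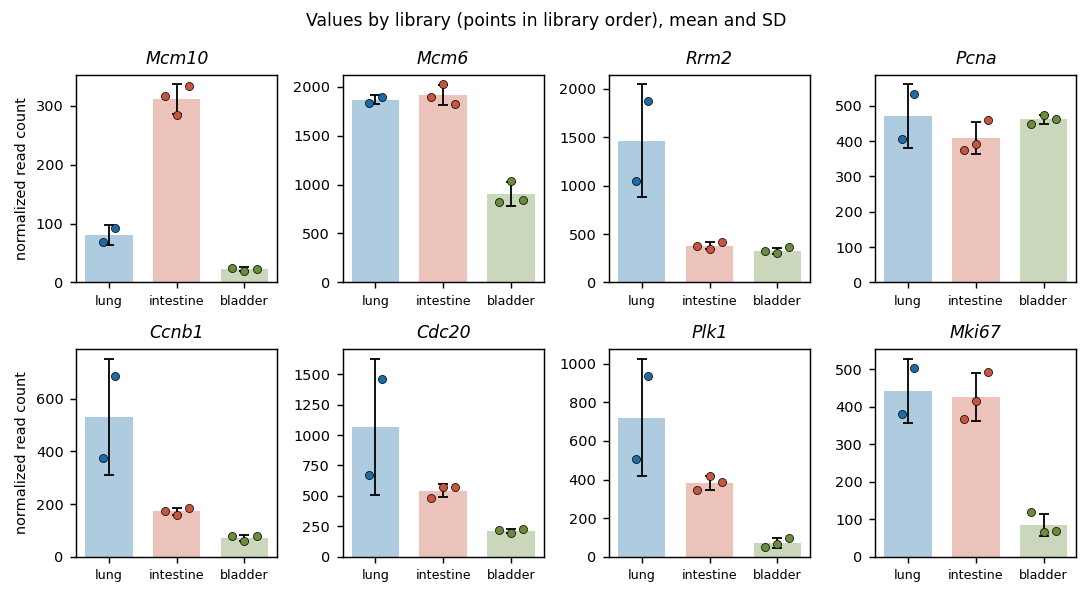
Normalized read counts of 8 members in each library (points), with the mean (bars) and SD, for 2 lung, 3 intestine and 3 bladder libraries; the vertical axes differ. Mcm10 is highest in intestine, Rrm2 and Ccnb1 are highest in lung, Mcm6 and Mki67 overlap in lung and intestine and are lower in bladder, and Pcna overlaps in all 3 tissues.

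The 6 genes of cyclins and CDK1 formed a stepped group. All 6 were higher in lung than in bladder, 5 in lung than in intestine and 5 in intestine than in bladder. Over all genes 19.2%, 15.9% and 28.7% were higher in these pairs. Ccnb1, which activates CDK1 at the entry to mitosis (chromosome 13, 100915158 to 100923078), had 374 and 687 in lung, 175, 159 and 185 in intestine and 77, 58 and 78 in bladder. The tissues did not overlap, and its log2 difference was 1.55 (SE 0.28) for lung minus intestine, 2.83 (SE 0.28) for lung minus bladder and 1.28 (SE 0.25) for intestine minus bladder, with Benjamini-Hochberg adjusted p in limma of 0.00187, 4.98e-05 and 0.00192. Ccnb2, the second B-type cyclin, had 532 and 1147 in lung, 323, 349 and 421 in intestine and 151, 136 and 156 in bladder. It rose by 1.11 (SE 0.28, limma adjusted p = 0.0127 after Benjamini-Hochberg) in lung over intestine and by 2.40 (SE 0.28, adjusted p = 0.000156) over bladder. The call against intestine was lost without lung library 2 (limma adjusted p = 0.0667 after Benjamini-Hochberg) or intestine library 1. Cdk1 itself had 462 and 1003 in lung, 303, 349 and 342 in intestine and 81, 100 and 126 in bladder, and Ccna2, the cyclin of S and G2 phase, had 477 and 1013 in lung, 349 to 407 in intestine and 118 to 148 in bladder. Both kept lung above intestine and intestine above bladder in all libraries, and both lost the call between lung and intestine without lung library 2 (limma adjusted p = 0.203 for Cdk1 and 0.211 for Ccna2 after Benjamini-Hochberg) or without any of the intestine libraries (adjusted p = 0.0617 to 0.0913 over both genes); Ccna2 also lost it with the library number as a block (adjusted p = 0.0638). Their differences between lung and intestine were 1.04 (SE 0.31) for Cdk1 and 0.89 (SE 0.28) for Ccna2, and without lung library 1 they were 1.60 and 1.44.

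The E-type cyclins, which drive entry into S phase, were lower in abundance. Ccne1 had 196 and 463 in lung, 150, 198 and 150 in intestine and 67, 84 and 129 in bladder. Its lung library 1 lay inside the intestine range, and it was called only for lung minus bladder, at 1.73 (SE 0.39, limma adjusted p = 0.00619 after Benjamini-Hochberg), a call lost without lung library 2 (adjusted p = 0.055). Ccne2 had 201 and 309 in lung, 120, 173 and 118 in intestine and 85, 90 and 80 in bladder. It was higher in lung than in intestine by 0.88 (SE 0.27, limma adjusted p = 0.0271 after Benjamini-Hochberg) and higher in intestine than in bladder by 0.66 (SE 0.24, adjusted p = 0.0431). The call against intestine was lost without lung library 2 or intestine library 1 or 3 (limma adjusted p = 0.187, 0.0819 and 0.0843 after Benjamini-Hochberg). Quantile normalization gave -0.07 in place of 0.66, and the call in intestine over bladder was lost without any 1 of the intestine or bladder libraries.

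The APC/C cofactors showed the largest median gap between the lung libraries of the 8 groups. Cdc20, the activator that starts anaphase (chromosome 4, 118290098 to 118294549), had 671 and 1463 in lung, 486, 574 and 572 in intestine and 219, 194 and 228 in bladder. Ube2c, the E2 enzyme that supplies the complex with ubiquitin (chromosome 2, 164611818 to 164620742), had 370 and 830 in lung, 304, 284 and 299 in intestine and 55, 80 and 114 in bladder. For both genes lung lay above intestine and intestine above bladder without overlap. Cdc20 was higher in lung than in intestine by 0.87 (SE 0.27, limma adjusted p = 0.0318 after Benjamini-Hochberg), whereas the difference of Ube2c, 0.90 (SE 0.37, adjusted p = 0.0784), did not pass. Without lung library 2 the value of Cdc20 was 0.31 (limma adjusted p = 0.194 after Benjamini-Hochberg), without lung library 1 it was 1.43, and without intestine library 1, 2 or 3 the call was lost (adjusted p = 0.101, 0.0704 and 0.0727). Over bladder, Cdc20 was higher by 2.21 (SE 0.27) in lung and 1.34 (SE 0.24) in intestine, and Ube2c by 2.79 (SE 0.37) and 1.88 (SE 0.33), with Benjamini-Hochberg adjusted p in limma of 0.000206, 0.00137, 0.000298 and 0.00104.

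Mitotic kinases, checkpoint and passenger genes had the largest median differences from bladder of the 8 groups. All 6 were higher in lung than in bladder (19.2% over all genes), with a median log2 difference of 2.69. Higher in intestine than in bladder were 5 of 6 (28.7% over all genes), with a median of 1.65. Plk1, the kinase that acts from spindle assembly to cell separation (chromosome 7, 121758662 to 121769096), had 505 and 936 in lung, 347, 417 and 385 in intestine and 48, 66 and 98 in bladder. The tissues did not overlap, and its difference of 3.32 (SE 0.33, limma adjusted p = 5.16e-05 after Benjamini-Hochberg) for lung minus bladder was the largest among the 40 genes, while the 0.85 (SE 0.33, adjusted p = 0.0678) for lung minus intestine did not pass. Bub1, a kinase of the spindle checkpoint, had the lowest values of the group, with 134 and 181 in lung, 123, 67 and 101 in intestine and 8, 24 and 27 in bladder. It was higher by 3.09 (SE 0.51) in lung and 2.36 (SE 0.46) in intestine than in bladder, with Benjamini-Hochberg adjusted p in limma of 0.00119 and 0.00197. Birc5 (survivin), a member of the chromosomal passenger complex, had 356 and 765 in lung, 283 to 337 in intestine and 76 to 104 in bladder, and its difference of 0.79 (SE 0.30, limma adjusted p = 0.0637 after Benjamini-Hochberg) between lung and intestine did not pass although the libraries did not overlap. The aurora kinases did pass in that pair: Aurka, of the spindle poles, had 444 and 908 in lung and 248 to 318 in intestine, a difference of 1.19 (SE 0.31, limma adjusted p = 0.0128 after Benjamini-Hochberg). Aurkb, of the passenger complex, had 413 and 794 in lung and 240 to 329 in intestine, a difference of 1.08 (SE 0.29, adjusted p = 0.0153). Without lung library 2 both calls were lost (limma adjusted p = 0.106 for Aurka and 0.126 for Aurkb after Benjamini-Hochberg), and that of Aurkb also without intestine library 2 or 3 (adjusted p = 0.0574 and 0.0558). Bub1b, the checkpoint protein BUBR1, had 331 and 537 in lung, 197 to 347 in intestine and 141 to 180 in bladder, and was called for lung minus bladder only, at 1.40 (SE 0.28, limma adjusted p = 0.00353 after Benjamini-Hochberg).

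All 3 centromere and kinetochore genes were higher in lung and in intestine than in bladder (19.2% and 28.7% over all genes). Between lung and intestine 1 was higher in lung (15.9% over all genes). That 1 was Cenpa, the histone H3 variant that marks centromeres (chromosome 5, 30824121 to 30832174), with 561 and 1074 in lung, 384, 370 and 414 in intestine and 157, 178 and 196 in bladder. The tissues did not overlap, and the difference between lung and intestine was 1.00 (SE 0.25, limma adjusted p = 0.0104 after Benjamini-Hochberg), or 0.53 (adjusted p = 0.0513) without lung library 2. Cenpe, a kinetochore motor, had 171 and 286 in lung, 229, 351 and 370 in intestine and 38, 26 and 67 in bladder. Here lung was the lower of the overlapping pair, with a difference of -0.48 (SE 0.41, limma adjusted p = 0.382 after Benjamini-Hochberg) for lung minus intestine. Cenpf, a large protein of the outer kinetochore, had 214 and 295 in lung, 124, 261 and 178 in intestine and 89, 69 and 104 in bladder, with differences from bladder of 1.53 (SE 0.33, limma adjusted p = 0.00502 after Benjamini-Hochberg) in lung and 1.05 (SE 0.30, adjusted p = 0.0145) in intestine, the second of which was lost without intestine library 2 or bladder library 2.

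The 6 genes of the spindle, chromosome structure and cytokinesis were all higher in lung and in intestine than in bladder. Over all genes 19.2% and 28.7% were. Between lung and intestine the 6 genes split. Tpx2, which activates Aurora A on the spindle (chromosome 2, 152689884 to 152737241), had 648 and 1014 in lung, 338, 314 and 232 in intestine and 107, 114 and 160 in bladder. Kif20a, a motor of the central spindle, had 585 and 927 in lung, 175, 229 and 256 in intestine and 96, 125 and 158 in bladder. Both were higher in lung than in intestine without overlap, by 1.48 (SE 0.26, limma adjusted p = 0.00183 after Benjamini-Hochberg) and 1.76 (SE 0.28, adjusted p = 0.000937), and with lung library 1 alone by 1.15 (adjusted p = 0.0208) and 1.42 (adjusted p = 0.0116). In intestine Kif20a exceeded bladder by 0.81 (SE 0.25, limma adjusted p = 0.0223 after Benjamini-Hochberg), a call lost without intestine library 2 or 3 or bladder library 1 or 2. The other 4 were not called between lung and intestine. Top2a, the topoisomerase that untangles sister chromatids, had 437 and 754 in lung, 502, 764 and 836 in intestine and 192, 145 and 164 in bladder. Kif11, the motor that separates spindle poles, had 192 and 227 in lung, 328, 268 and 251 in intestine and 77, 51 and 104 in bladder. Kif23, a motor of the midbody, had 301 and 395 in lung, 289, 351 and 437 in intestine and 131, 119 and 133 in bladder. Lung values were below intestine in all libraries for Kif11 and overlapped with intestine for Top2a and Kif23, with log2 differences of -0.42 (SE 0.30), -0.25 (SE 0.28) and -0.04 (SE 0.21) and Benjamini-Hochberg adjusted p in limma of 0.287, 0.501 and 0.905. Nusap1, which bundles spindle microtubules, had 293 and 527 in lung, 239 to 296 in intestine and 95 to 131 in bladder, a difference of 0.60 (SE 0.26, limma adjusted p = 0.104 after Benjamini-Hochberg) between lung and intestine.

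Per 1000 nt of transcript the order of the members changed with the tissue. In lung the highest means were of Rrm2 (668), Cdc20 (595), Ccnb2 (548), Mcm6 (429) and Aurka (355), and in intestine of Mcm6 (440), Mcm7 (321), Mcm2 (310), Cdc20 (303) and Mcm3 (289). In bladder they were of Pcna (304), Mcm4 (230), Rrm1 (221), Mcm6 (207) and Mcm7 (202), all genes of replication. Mcm10 was the lowest member in lung (16.4) and in bladder (4.59), and Cenpf in intestine (16.9).

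The lung libraries differed from each other in cell cycle genes. In library 1, 39 of the 40 members were lower than in library 2 and only Mcm4 was higher, where 50.0% of all genes tested were lower. The median log2 ratio of library 1 to library 2 was -0.70 over the members and 0.00 over all genes, from -1.24 for Ccne1 to 0.34 for Mcm4. At least 2-fold lower in library 1 were 8 members (Cdk1, Ccna2, Ccnb2, Ccne1, Cdc20, Ube2c, Aurka and Birc5), beside 7.70% of all genes, and 7.94% of all genes were at least 2-fold higher. Tk1, at 0.504 of its library 2 value, lay just outside that limit and Aurka, at 0.489, just inside. Each pair of libraries within intestine and within bladder gave smaller medians, from -0.17 to 0.05. The coefficient of variation of a member had a median of 33.6% in lung, 11.8% in intestine and 13.9% in bladder. In the lists outside the 40 genes, 36 of 38 mitosis genes (median -0.70), 35 of 39 origin and fork genes (-0.45), 16 of 25 genes of G1 control (-0.26) and 6 of 6 tested CDK inhibitors (-0.38) were lower in library 1. There is 1 library on each side, so no test was made.

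The gap between the lung libraries varied among the role groups and within them. The median log2 ratio of library 1 to library 2 was -1.14 for the APC/C cofactors, -1.10 for cyclins and CDK1, -0.92 for mitotic kinases and checkpoint genes, -0.74 for centromere genes and -0.65 for spindle genes (-0.84 to -0.24). It was -0.63 for genes of DNA synthesis (-0.99 to -0.12), -0.43 for licensing and helicase genes and -0.36 for Mki67 and Foxm1. Ccne1 stood at 0.423 of its library 2 value in library 1 (95% counting interval 0.361 to 0.493), Ube2c at 0.446 (0.398 to 0.499) and Cdc20 at 0.459 (0.422 to 0.499). Rrm1 stood at 0.919 (0.863 to 0.979), Mcm6 at 0.968 (0.913 to 1.03) and Mcm4 at 1.27 (1.18 to 1.37). These intervals are exact, cover counting error only, and amplified reads are not independent molecules.

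**Figure D4:**
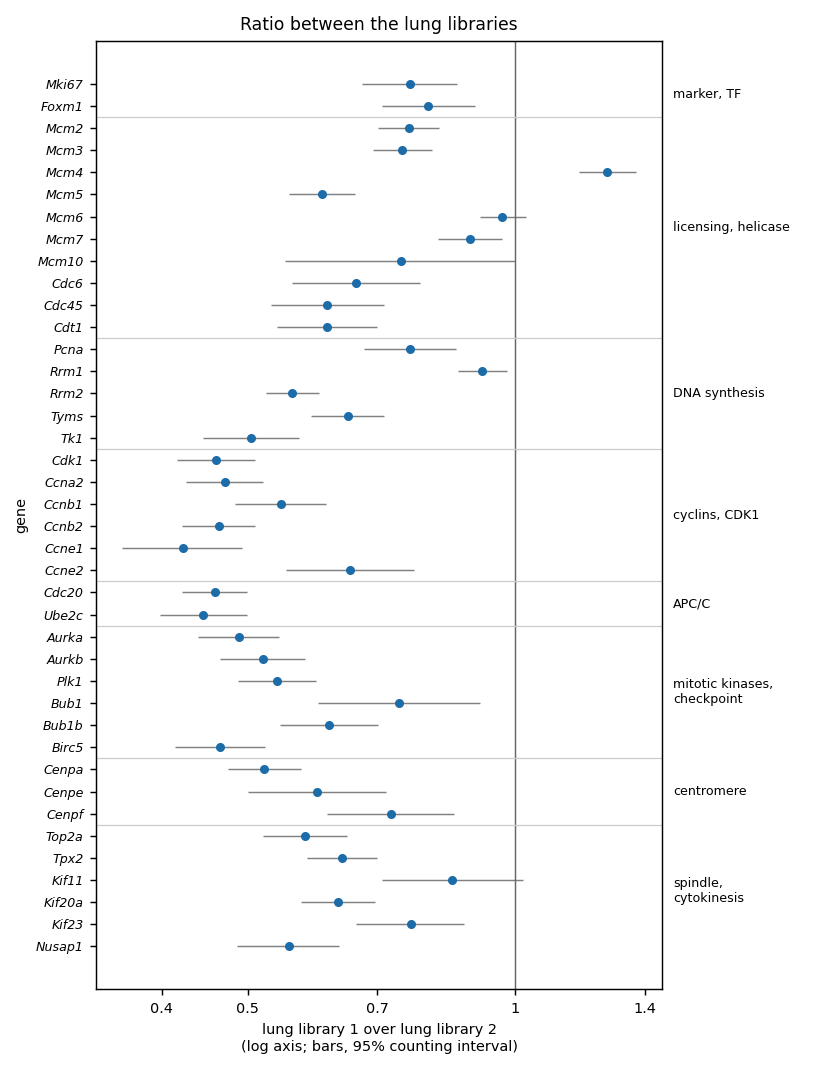
Points give each gene's value in lung library 1 over that in lung library 2, on a log axis, with 95% counting intervals; the line marks a ratio of 1. Of 40 genes, 39 lie left of the line, cyclins, Cdk1 and the APC/C cofactors farthest, and Mcm4 lies right of it at 1.27.

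Set against the other tissues, lung library 1 was above every intestine library for 21 members and below every one for 9 (Mcm2, Mcm5, Mcm7, Mcm10, Cdt1, Tk1, Cenpe, Top2a and Kif11), and lung library 2 was above for 33 and below for 2 (Mcm10 and Kif11). Over all genes, 36.1% were above and 39.7% below for lung library 1, and 37.3% and 42.6% for lung library 2. Against bladder, lung library 1 was above every library for 39 members and library 2 for 40, where 38.0% and 38.7% of all genes were. Other RNA moved between the lung libraries too: general epithelial genes summed to 67.6 ppm in library 1 and 111 ppm in library 2, intestinal epithelial genes to 63.3 and 38.2 ppm, cardiac muscle genes to 497 and 427 ppm, fibroblast genes to 1643 and 1900 ppm, and smooth muscle genes to 3112 and 2860 ppm. Most of the intestinal epithelial sum in lung was Lgr5, with 556 and 265, and Lgals4, with 145 and 136. Lgr5 was not called between any of the tissues. The part of this other RNA in the gap between the lung libraries was not tested.

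Transcript length moved with the same ratio. Over all genes, the median log2 ratio of lung library 1 to library 2 was -0.17 for transcripts of up to 2500 nt, -0.01 for those of over 2500 to 4000 nt and 0.21 for longer ones. Over the members it was -0.96 (12 genes), -0.64 (16 genes) and -0.45 (12 genes), below the all-gene median in each length class. For lung minus intestine the members' medians were 0.89, 0.45 and 0.22 in these classes, against 0.05, 0.01 and -0.18 over all genes. Spearman's correlation with length was 0.50 over the 40 members and 0.29 over all genes for the ratio of the lung libraries, and -0.36 and -0.09 for lung minus intestine; genes are not independent, and these values are a description. The part of length in the difference was not tested.

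Other genes of the cycle, listed by function, were counted in the same fits. Of 38 further mitosis genes, 36 were higher and 1 lower in lung than in bladder (over all genes, 19.2% and 21.8%). In intestine 32 were higher and 2 lower than in bladder (over all genes, 28.7% and 23.3%). Between lung and intestine 9 were higher in lung and 0 lower (over all genes, 15.9% and 23.6%). Anln, which organizes the cleavage furrow and also binds actin outside of division, had 1073 and 914 in lung, 141, 151 and 198 in intestine and 162, 176 and 164 in bladder. It was high in lung alone, by 2.61 over intestine and 2.56 over bladder (limma adjusted p = 5.69e-06 and 8.58e-06 after Benjamini-Hochberg), and unlike most cell cycle genes it was higher in lung library 1 than in library 2. Ncaph, of condensin, and Ccnf, cyclin F, were higher than in bladder by 2.01 and 2.33 in lung and by 1.66 and 1.70 in intestine. Cdc25b, a phosphatase that activates CDK1, went the other way, with log2 differences from bladder of -0.45 in lung and -0.64 in intestine (limma adjusted p = 0.0431 and 0.0037 after Benjamini-Hochberg), and Pttg1, securin, was lower in intestine than in bladder (-0.32, adjusted p = 0.0186).

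Of 39 further origin and fork genes, 21 were higher and 0 lower in lung than in bladder, 20 were higher and 4 lower in intestine than in bladder, and 6 were higher in lung than in intestine and 1 lower. Over all genes 19.2% were higher in lung than in bladder, 28.7% in intestine than in bladder and 15.9% in lung than in intestine, so the 6 genes higher in lung than in intestine are close to the share over all genes. Uhrf1, which maintains DNA methylation behind the fork, had 319 and 430 in lung, 440, 531 and 449 in intestine and 52, 83 and 103 in bladder. Lig1, the ligase that joins Okazaki fragments, was higher than in bladder by 1.61 in lung and 1.44 in intestine (limma adjusted p = 8.85e-05 and 5.23e-05 after Benjamini-Hochberg). Pola1, the catalytic subunit of polymerase alpha, shared the direction of Mcm10, with 182 and 184 in lung, 345, 386 and 412 in intestine and 137, 149 and 126 in bladder. It was lower in lung than in intestine (log2 difference -1.05, limma adjusted p = 0.000943 after Benjamini-Hochberg). Lower in intestine than in bladder were Prim2 (-0.53), Rpa1 (-0.49), Cdc7 (-0.55) and Tipin (-0.40), which encode a primase subunit, a subunit of the single-strand binding protein, the kinase of origin firing and a fork protection factor, with Benjamini-Hochberg adjusted p in limma of 0.018, 0.000987, 0.024 and 0.0173.

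Of 25 genes that govern the exit from G1 phase, 8 were higher and 4 lower in lung than in bladder (over all genes, 19.2% and 21.8%), and 12 higher and 6 lower in intestine than in bladder (over all genes, 28.7% and 23.3%). Between lung and intestine 4 were higher and 5 lower in lung, close to the shares over all genes (15.9% and 23.6%). The D-type cyclins, which answer growth signals with CDK4 and CDK6, diverged. Ccnd1 had 99 and 99 in lung, 491, 421 and 500 in intestine and 212, 146 and 157 in bladder, and was lower in lung, with a log2 difference of -2.23 from intestine (limma adjusted p = 2.53e-05 after Benjamini-Hochberg) and of -0.77 from bladder (adjusted p = 0.0132). Ccnd2 was also lower in lung, with differences of -0.54 from intestine and -0.35 from bladder (limma adjusted p = 0.0003 and 0.00386 after Benjamini-Hochberg), with means of 2437 in lung, 3543 in intestine and 3096 in bladder. Ccnd3 was lower than in bladder in both tissues, with differences of -0.42 in lung and -0.63 in intestine (limma adjusted p = 0.00135 and 3.58e-05 after Benjamini-Hochberg). Their partner Cdk6 had 413 and 646 in lung, 508, 635 and 582 in intestine and 120, 106 and 103 in bladder, higher by 2.23 in lung and 2.38 in intestine (limma adjusted p = 3.49e-05 and 6.84e-06 after Benjamini-Hochberg), whereas Cdk4 was lower in intestine than in bladder (-0.29, adjusted p = 0.0106). E2f1, an activator of S phase genes, had 322 and 513 in lung, 188, 239 and 211 in intestine and 296, 329 and 355 in bladder. It was higher in lung than in intestine by 0.94 (limma adjusted p = 0.00707 after Benjamini-Hochberg) and lower in intestine than in bladder (-0.62, adjusted p = 0.022). E2f4 and E2f6, repressors of the same family, were likewise higher in lung than in intestine (0.34 and 0.69, limma adjusted p = 0.043 and 0.00233 after Benjamini-Hochberg) and lower in intestine than in bladder (-0.28 and -0.57, adjusted p = 0.0492 and 0.00243). Of the E2F partners, Tfdp1 was lower in intestine than in bladder (-0.30, limma adjusted p = 0.015 after Benjamini-Hochberg), and Tfdp2 was lower in lung than in intestine and bladder (-1.12 and -0.67, adjusted p = 0.00248 and 0.0298).

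Of the 7 genes of CDK inhibitors, 6 passed the filter on low values; Cdkn2a did not. Against bladder 2 were higher and 2 lower in lung (over all genes, 19.2% and 21.8%). Likewise 2 were higher and 2 lower in intestine than in bladder (over all genes, 28.7% and 23.3%). Between lung and intestine 1 was higher and 1 lower in lung, close to the shares over all genes (15.9% and 23.6%). Cdkn2b, the inhibitor of CDK4 and CDK6 known as p15, had 99 and 140 in lung, 86, 89 and 99 in intestine and 397, 413 and 456 in bladder. It was lower than in bladder in both tissues, with log2 differences of -1.83 in lung and -2.20 in intestine (limma adjusted p = 0.000116 and 1.12e-05 after Benjamini-Hochberg). Cdkn1c (p57) was also lower than in bladder, with -0.66 in lung and -0.89 in intestine (limma adjusted p = 0.000276 and 1.32e-05 after Benjamini-Hochberg), and Cdkn2c (p18) was higher, by 1.59 in lung and 1.13 in intestine (adjusted p = 0.000346 and 0.000876). Cdkn2d (p19) had 865 and 1118 in lung, 570, 505 and 471 in intestine and 600, 606 and 699 in bladder, and was higher in lung by 0.94 over intestine and 0.63 over bladder (limma adjusted p = 0.000759 and 0.00643 after Benjamini-Hochberg). Cdkn1a (p21) was lower in lung than in intestine (-0.38, limma adjusted p = 0.0423 after Benjamini-Hochberg), with means of 1986 in lung, 2562 in intestine and 2251 in bladder.

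Markers of other cells moved with the tissues as well. Of 10 general epithelial genes, 9 stood higher in intestine than in bladder. They were lower in lung than in intestine for 10 of 10, and lower in lung than in bladder for 9 of 10. They summed to 67.6 and 111 ppm in lung, 1590 to 1694 ppm in intestine and 350 to 568 ppm in bladder. Intestinal epithelial genes summed to 38.2 and 63.3 ppm in lung, 1068 to 1179 ppm in intestine and 59.7 to 67.1 ppm in bladder. In lung and bladder most of that sum was Lgr5 and Lgals4. Lgr5 had means of 410 in lung, 386 in intestine and 488 in bladder and was not called in any pair. Cdx1 and Cdx2, which define that epithelium, were at 0 in all lung and bladder libraries and at 1402 to 1566 and 465 to 578 in intestine. Lung epithelial genes, the surfactant genes among them, were higher in lung than in intestine for 7 of 8 and higher in lung than in bladder for 6 of 8. They summed to 352 and 324 ppm in lung, 9.78 to 11.2 ppm in intestine and 10.6 to 20.6 ppm in bladder. Cardiac muscle genes were higher in lung than in either other tissue for 6 of 6, and summed to 497 and 427 ppm in lung, 27.4 to 33.2 ppm in intestine and 37.7 to 49.7 ppm in bladder. Leukocyte genes summed to 185 and 203 ppm in lung, 270 to 303 ppm in intestine and 281 to 486 ppm in bladder, and between lung and bladder 5 of 11 were higher and 4 lower. Erythroid genes were higher than in bladder for 5 of 5 tested in both lung and intestine and summed to 22.3 and 25.8 ppm in lung, 45.5 to 59.8 ppm in intestine and 4.75 to 7.91 ppm in bladder. Endothelial genes summed to 627 and 707 ppm in lung, 1036 to 1206 ppm in intestine and 384 to 501 ppm in bladder, and mural cell genes to 1898 and 2196 ppm in lung, 2176 to 2285 ppm in intestine and 777 to 809 ppm in bladder. Smooth muscle genes summed to 2860 and 3112 ppm in lung, 2710 to 2920 ppm in intestine and 1597 to 1949 ppm in bladder, with 6 of 10 higher and 0 lower in lung than in bladder, and 6 higher and 2 lower in intestine than in bladder. Fibroblast genes were lower than in bladder for 7 of 7 in lung and 6 of 7 in intestine. The part of any of these cells in the cell cycle differences was not tested.

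**Figure D5:**
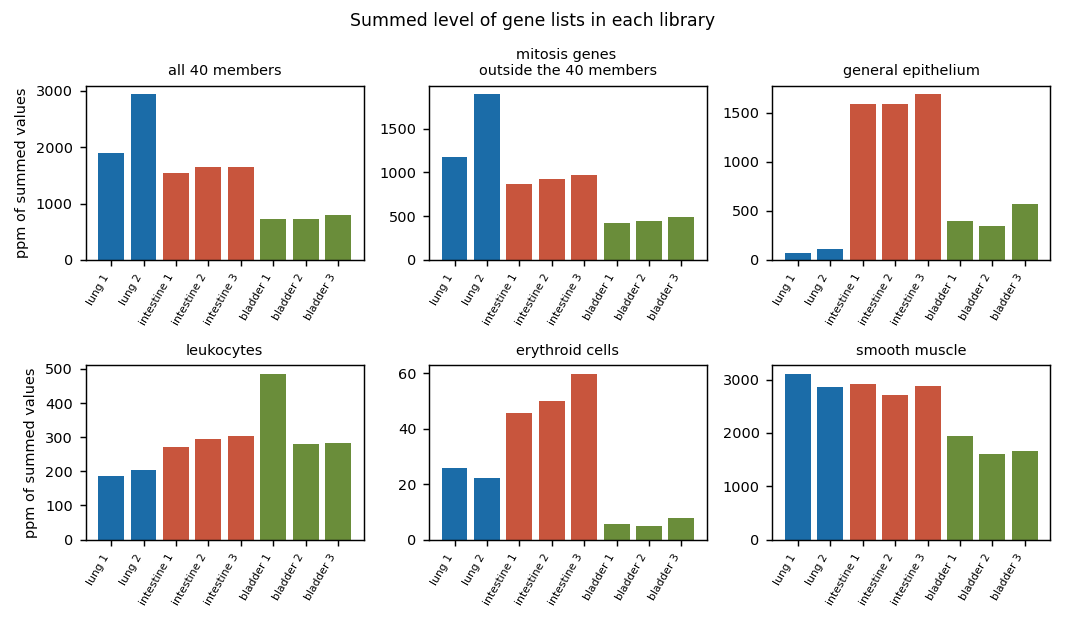
Summed level of 6 gene lists in each library, in ppm of the library's summed values; each panel has its own axis. The 40 members and the 38 further mitosis genes step down from lung library 2 to bladder, while general epithelial genes peak in intestine at 1590 to 1694 ppm and are lowest in lung.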

How the data were processed

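RNA of sorted cells was amplified with the SMART-Seq v4 kit from at most 10 ng of total RNA, per the labels' protocols. Tamoxifen came as 20 mg/mL in corn oil. STAR 2.7.10a, featureCounts 2.0.4, Trimmomatic 0.39, DESeq2 1.36.0, Picard 3.0.0 and the mouse build mm39 are listed in the submitters' processing notes, with no word on their roles. Annotation, strand setting and filters are not stated there. The deposited values were taken as a score, since they are whole numbers spaced like counts that were scaled library by library and then rounded. Reads were reconstructed by dividing by that scale and give depths of 13.62 and 12.67 M in lung, 12.54, 13.19 and 12.02 M in intestine and 9.72, 9.93 and 10.95 M in bladder.

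Tests used limma 3.58.1 in R 4.3.3 with an intensity trend on log2(value + 1), which understates changes of low genes, with a mean per tissue, all 8 libraries in 1 fit, and Benjamini-Hochberg adjustment over the 18097 genes with at least 10 in at least 2 libraries (two-sided). The scripts were tested on simulated data. Values per 1000 nt used the length of the isoform with the longest coding sequence in GENCODE M21 (96.8% of the IDs matched), whose coordinates were not used. Gene coordinates are those of the deposited table. Ratios between the lung libraries carry exact (Clopper-Pearson) 95% intervals on reconstructed reads. Motif letters were searched in RefSeq promoters. Library numbers in the titles were not used to pair the tissues in the main fit, since the labels do not say what a shared number means. Deviations from tissue means of same-numbered libraries correlated at -0.03 to 0.06. With so few libraries per tissue these correlations cannot show whether same-numbered libraries share an animal or a batch. Figures used matplotlib 3.10.9.

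Members, role groups, pathway lists and cell type lists were chosen with earlier results of these data known. Per role group, values in all libraries are given for the gene of smallest adjusted p, those of highest and lowest mean, the gene with the largest ratio between the lung libraries and genes moving against their group, and other members were added beside them after their values were seen. Per pathway list, up to 3 genes of smallest adjusted p and any against the rest are named. Alternatives were other pseudocounts, filters, scalings, variance models, the replicate block and leaving out each library.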

Additional observations from a re-analysis of the deposited data

How the results depend on the processing

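Pseudocounts of 0.5 and 4, filters of a nonzero value and of at least 30, and robust shrinkage gave 16 members higher in lung than in intestine, 38 higher in lung than in bladder and 32 or 33 higher in intestine than in bladder. For lung over intestine, 11 were higher without the intensity trend and with the 2 tissues alone in the fit (13.1% and 12.2% of all genes). With voom weights 20 were higher (20.9% of all genes), with quantile normalization 23 (28.6%) and with the scaling undone 18 (20.4%). Over the other alternatives, 35 to 40 were higher in lung than in bladder and 26 to 38 in intestine than in bladder. Over all genes 13.8% to 43.9% and 23.0% to 46.0% were higher in these pairs. With quantile normalization 2 members were lower in intestine than in bladder, where 32.1% of all genes were. The cause was not tested. With the scaling undone the median log2 ratio of the lung libraries was -0.62. Leaving out 1 library gave 6 to 25 members higher and 1 lower in lung than in intestine, 36 to 38 higher and 0 lower in lung than in bladder, and 28 to 36 higher and 0 lower in intestine than in bladder. Where lung was left with 1 library, that library was assumed to vary like the other groups.

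The replicate block, by library number, gave 17 higher and 1 lower for lung minus intestine, 38 and 0 for lung minus bladder and 33 and 0 for intestine minus bladder, with Ccna2 (adjusted p = 0.0638 in limma) lost and Ube2c and Plk1 (0.0385 and 0.0211) gained for lung minus intestine, Ccne1 (0.0384) gained for intestine minus bladder, and changed the sign of Kif23 (0.05, lung minus intestine). The labels do not say what a shared library number means.

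Signs changed for Ccne2 with quantile normalization and otherwise only for differences not called in the main fit. Those differences were up to 0.31 in size (Tyms, lung minus intestine). For intestine minus bladder they were Cdc6 and Pcna (both 0.21, scaling undone) and Ccne2 and Rrm2 (both -0.07, quantile). For lung minus bladder it was Pcna (-0.05, quantile). For lung minus intestine, Kif23, Mcm2 and Mcm6 gave 0.08, 0.11 and 0.08 with the scaling undone, 0.02, 0.05 and 0.02 at equal totals and 0.01, 0.04 and 0.01 with voom, and Kif23 gave 0.20 with quantile normalization; the cause was not tested. With 1 library left out, the ranges that cross 0 for lung minus intestine were -0.32 to 0.38 (Cdt1), -0.23 to 0.16 (Kif23), -0.20 to 0.20 (Mcm2), -0.02 to 0.32 (Mcm4), -0.19 to 0.53 (Mcm5), -0.07 to 0.00 (Mcm6), -0.08 to 0.09 (Mcm7), -0.15 to 0.25 (Mki67), 0.00 to 0.39 (Pcna), -0.35 to 0.64 (Tk1), -0.65 to 0.14 (Top2a) and 0.00 to 0.62 (Tyms), and for lung minus bladder -0.18 to 0.21 (Pcna). With 2 lung libraries that differ from each other, the size of the differences between lung and intestine is poorly fixed.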
